A study of Mus musculus with 6 samples.

Results

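Imprinted genes were examined for accessible chromatin in dermal fibroblasts with and without Lap2alpha. The set held 31 mouse genes in 15 imprinted clusters, 29 of them protein-coding and 2 (H19 and Meg3) long non-coding RNAs, and all 31 were found in the gene table. A peak belonged to the set if its summit lay in the RefSeq span of a member or within 20 kb of either end. By this rule 112 of 98072 peaks of the Lap2alpha KO list and 132 of 106132 peaks of the wildtype (WT) list were members.

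Imprinted genes are expressed mainly from the copy inherited from 1 parent. The choice is set by DNA methylation laid down in egg or sperm at imprinting control regions, and it usually governs a cluster of neighbouring genes. Some control regions are promoters of long non-coding RNAs that silence their neighbours on the same chromosome, such as Kcnq1ot1 and Airn, and others bind the insulator protein CTCF, as between Igf2 and H19. Many imprinted genes control fetal growth. An accessible control region is often open on the unmethylated copy, and ATAC-seq peaks without allele information do not separate the 2 copies.

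The study compared cultured mouse dermal fibroblasts, labelled as a cell line, of the genotype Lap2alpha KO (3 libraries) with WT cells of the same type (3 libraries). Lap2alpha is a nucleoplasmic splice form of the Tmpo product that binds A-type lamins. Cells of both genotypes were grown in the same serum-containing medium with antibiotics, and nuclei were cut with the Tn5 transposase, which inserts adapters into accessible DNA. The labels number the libraries within a genotype, name no allele, strain, age or sex, and leave unsaid whether separate animals or cultures were used.

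The libraries of a genotype had been merged into 1 peak list, so there was no replicate spread, and no p-value was computed. Read totals were not in the lists, so depth was unknown, and a peak of 1 list only cannot be told from one that fell slightly short of calling in the other. The absence of a peak does not show closed chromatin. A peak is called shared where it had at least 1 bp in common with a peak of the other genotype, and otherwise KO-only or WT-only. The strength of a peak is given as its signal percentile, its rank by deposited signal among all peaks of its own list, and 2 percentiles side by side do not measure a change between genotypes. Coordinates are those of GRCm38. Of 8 fibroblast marker genes, 7 had a peak within 1 kb of a gene end in both lists, and Lum had none in either. The same held for 2 of 6 keratinocyte, 1 of 6 leukocyte, 2 of 5 endothelial and 4 of 6 Schwann cell and melanocyte markers. The part of other cells in the results was not tested.

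The sequences of 3 starts are printed as examples. The first start region held a peak in the WT list only (Grb10), and the next had a peak narrow in KO and wide in WT (Snrpn). The last is a bidirectional start with no peak in either list (Usp29 and Peg3). They leave out starts with strong peaks in both lists, such as Ube3a (percentile 96.3 in KO and 95.8 in WT). Each sequence is the 250 bases before an annotated start, 5′ to 3′ on the strand of the gene, from the RefSeq promoter table of GRCm38.p6. They lie at chr11:12037421-12037670 (minus strand, Grb10), chr7:60005200-60005449 (minus strand, Snrpn) and chr7:6730333-6730582 (plus strand, Usp29). In these 3, capitals mark bases under a WT peak.
Grb10: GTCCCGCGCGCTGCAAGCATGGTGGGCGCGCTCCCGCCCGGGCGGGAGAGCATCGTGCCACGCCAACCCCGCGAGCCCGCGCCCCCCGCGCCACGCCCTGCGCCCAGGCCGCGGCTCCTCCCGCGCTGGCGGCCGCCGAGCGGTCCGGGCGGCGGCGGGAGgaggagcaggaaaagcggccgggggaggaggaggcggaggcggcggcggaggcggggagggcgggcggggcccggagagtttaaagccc
Snrpn: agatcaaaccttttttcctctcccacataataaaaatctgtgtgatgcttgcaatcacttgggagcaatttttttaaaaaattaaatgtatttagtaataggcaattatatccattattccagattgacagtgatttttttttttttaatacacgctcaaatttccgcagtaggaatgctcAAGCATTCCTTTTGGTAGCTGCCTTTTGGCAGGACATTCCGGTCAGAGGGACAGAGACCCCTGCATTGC
Usp29: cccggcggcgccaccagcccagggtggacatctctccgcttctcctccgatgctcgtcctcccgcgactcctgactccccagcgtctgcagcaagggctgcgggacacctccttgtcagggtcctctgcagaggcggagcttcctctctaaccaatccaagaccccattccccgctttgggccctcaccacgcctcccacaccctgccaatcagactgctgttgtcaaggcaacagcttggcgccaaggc
The Grb10 stretch held 40 CG dinucleotides at a GC content of 81.2%, and 161 of its bases lay under the WT peak. The Snrpn stretch held 3 CG at 36.8% GC, and 69 bases lay under the WT peak. The Usp29 stretch held 14 CG at 64.8% GC and also contains the annotated start of Peg3, which reads the other way and lies 164 bp from that of Usp29.

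Most peaks at imprinted clusters were common to both genotypes, and the WT list held more of its own. Of the KO peaks, 12 of 112 were KO-only (10.7%, exact Clopper-Pearson 95% interval 5.66 to 18, counting error only), against 13.4% of all KO peaks. Of the WT peaks, 33 of 132 were WT-only (25%, interval 17.9 to 33.3), against 20.4% of all WT peaks. Both intervals contain the share of the whole list. They treat peaks as independent and are too narrow where peaks lie in groups, such as the 4 WT-only peaks within 2378 bp at Grb10. The distance of WT from the whole list was larger in stricter subsets. With lists of equal length, 72.1% of WT peaks at the clusters were shared against 84.2% of all. The shares were 70.1% against 81.5% with a stricter summit threshold, and 67.7% against 80.9% in the upper 50% by signal. Both lists were cut before matching, so a WT peak whose KO partner fell below the cut counts as WT-only. In the upper 50% this gave 20 WT-only peaks, while 4 WT-only peaks of the uncut lists stood there. The KO list held 84.8% as many peaks as the WT list at imprinted clusters and 92.4% as many over the genome. The covered length was 73.5 kb in KO and 88.2 kb in WT.

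The peaks of 1 list only were weak and narrow within it, and weak in the lists at large too. The signal is an area, so a narrow peak tends to rank low, and the 2 traits are in part 1 measure. The median signal percentile was 13.1 for KO-only and 19.4 for WT-only peaks, against 43.3 for shared KO peaks and 59.6 for shared WT peaks. Their median width was 187 bp for KO-only and 295 bp for WT-only peaks, whereas shared peaks had medians of 526 bp in KO and 634 bp in WT. Over the genome, the median percentile was likewise low, at 16.5 for KO-only and 17.8 for WT-only peaks, against 55.9 for shared KO peaks and 59.3 for shared WT peaks. At imprinted clusters, 2 KO-only and 4 WT-only peaks stood in the upper 50% of their list. No peak of the other list lay within 1 kb of 7 KO-only and 25 WT-only peaks. Neither of these counts was made for all KO-only and WT-only peaks, so they show nothing particular to imprinted clusters. In the strongest decile of their list, 13 KO and 15 WT peaks lay at imprinted clusters, all of them shared.

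**Figure D1:**
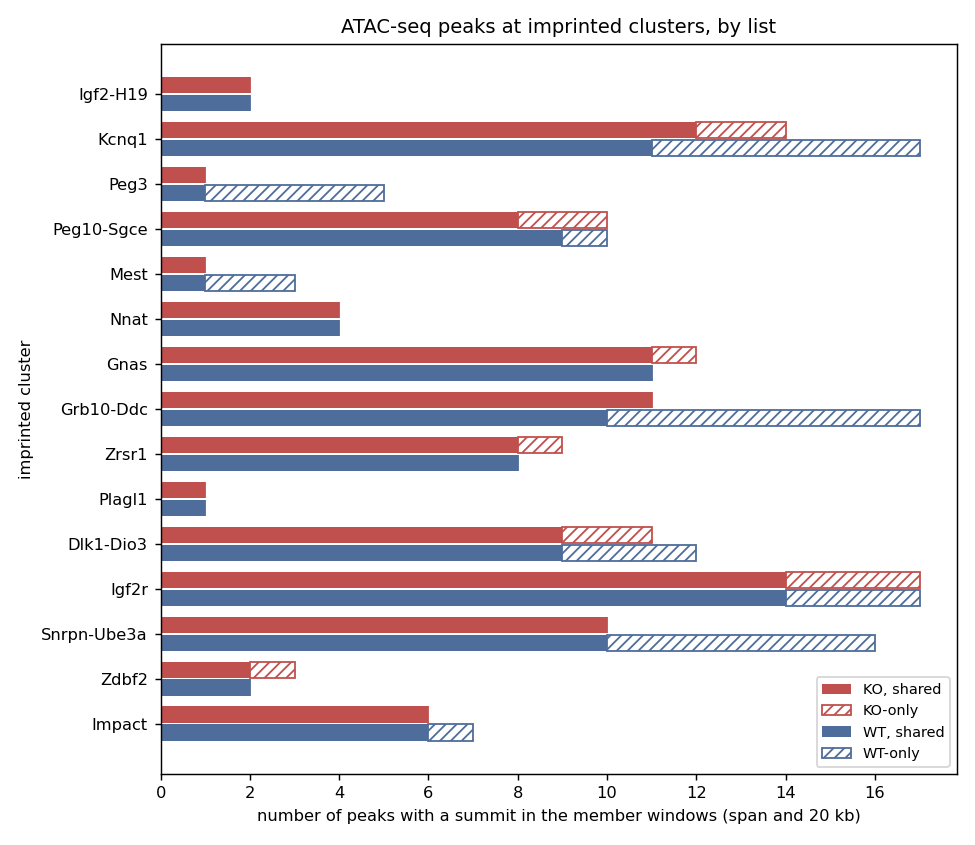
Number of ATAC-seq peaks per imprinted cluster (horizontal axis), KO bars in red above WT bars in blue, with shared peaks filled and peaks of 1 list hatched. The hatched WT bars reach 7 peaks at Grb10-Ddc, 6 at Snrpn-Ube3a, 6 at Kcnq1 and 4 at Peg3, and the hatched KO bars are at most 3 peaks long, at Igf2r.

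KO-only and WT-only peaks were unevenly spread over the clusters. WT-only peaks outnumbered KO-only ones at 7 clusters, the reverse held at 4, and the numbers were equal at 4. The Snrpn-Ube3a, Grb10-Ddc and Peg3 clusters together had 0 KO-only peaks of 22 and 17 WT-only peaks of 38. The other 12 clusters had 12 KO-only peaks of 90 (13.3%) and 16 WT-only peaks of 94 (17.0%), against 13.4% and 20.4% of the whole lists. Among these 12, Kcnq1 had 2 KO-only peaks of 14 and 6 WT-only peaks of 17, and Mest had 2 WT-only peaks of 3. The 4 clusters with more KO-only peaks also lay among them. Snrpn-Ube3a, Grb10-Ddc and Peg3 were picked after their values were seen, which shapes both sides of the split, so it was not tested. They also lay in 10 Mb blocks where the whole KO list was shorter, with 79.4% as many KO as WT peaks around Snrpn-Ube3a, 82.8% around Grb10-Ddc and 87.1% around Peg3. The lowest block share, 76.9%, lay around Zdbf2, a cluster without WT-only peaks and with 1 in KO only. All blocks held fewer KO than WT peaks except those around Peg10-Sgce (100%) and Impact (109%). The part of these block-wide differences in the cluster counts was not tested.

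**Figure D2:**
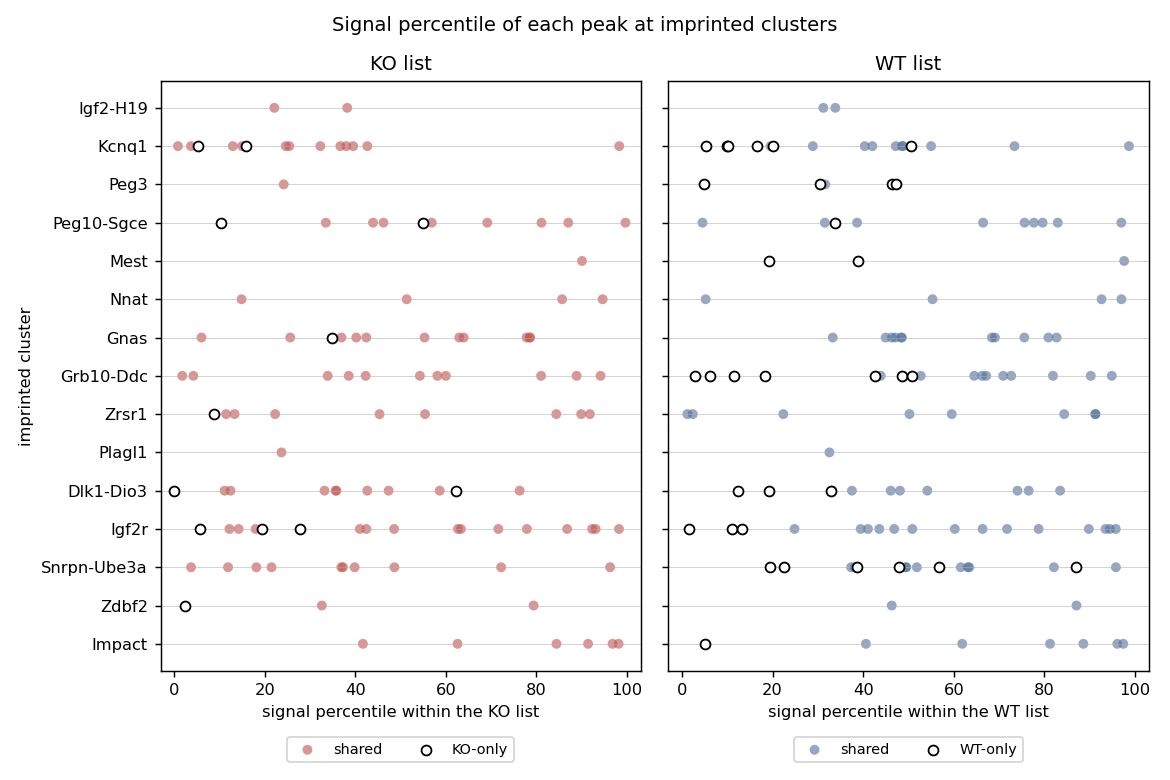
Signal percentile of every peak at imprinted clusters within its own list (horizontal axis, 0 to 100), by cluster, with the KO list on the left and the WT list on the right. Filled points are shared peaks and open points are peaks of 1 list, which lie mostly in the lower part, with the highest at 62.3 in KO (near Dio3) and at 87.1 in WT (between Magel2 and Mkrn3).

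Gene-end peaks were called for a smaller share of these members than of protein-coding genes at large, a difference that was not tested and was smaller for the 48 further imprinted genes described last. A peak within 1 kb of either gene end was called in both lists for 8 of the 29 protein-coding members (27.6%), against 56.1% of 21887 protein-coding genes. No member had one in the KO list only, against 1.31% of all protein-coding genes. One member, Grb10, had one in the WT list only, against 2.47%. The remaining 20 (69.0%) had none in either list, against 40.2% of all protein-coding genes, and neither had H19 or Meg3. The 8 were Peg10, Sgce, Gnas, Igf2r, Ube3a, Magel2, Mkrn3 and Impact. Both ends of a gene count together, and Magel2 had its shared peak at the far end and a WT-only peak within 1 kb of its start.

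Genes of both parental origins were among those with and without such peaks. The origin was assigned to each gene and not measured in these cells, and Ube3a counts as maternal though it is so expressed in neurons. Of 19 members expressed mainly from the paternal copy, 14 lacked such a peak in both lists and 5 had it in both. Of 11 expressed mainly from the maternal copy, 8 lacked it in both, 2 had it in both, and Grb10 had it in WT only. Gnas, which has transcripts from either copy, had one in both. Over their whole windows, 24 members had peaks in both lists, and H19, Ascl2, Zim1, Meg3 and Ndn had none in either. Dio3 had a peak in KO only, and Peg3 in WT only. Thus 6 members (19.4%) had no peak in the KO list and 6 (19.4%) none in the WT list, close to the 17.7% and 16.1% of all protein-coding genes in KO and in WT. The median member had 3 peaks in the KO list and 4 in the WT list, while the median protein-coding gene had 4 and 5. Per 100 kb of window, these medians were 3.57 and 4.81 for members and 6.24 and 6.76 for all protein-coding genes, in KO and in WT.

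**Figure D3:**
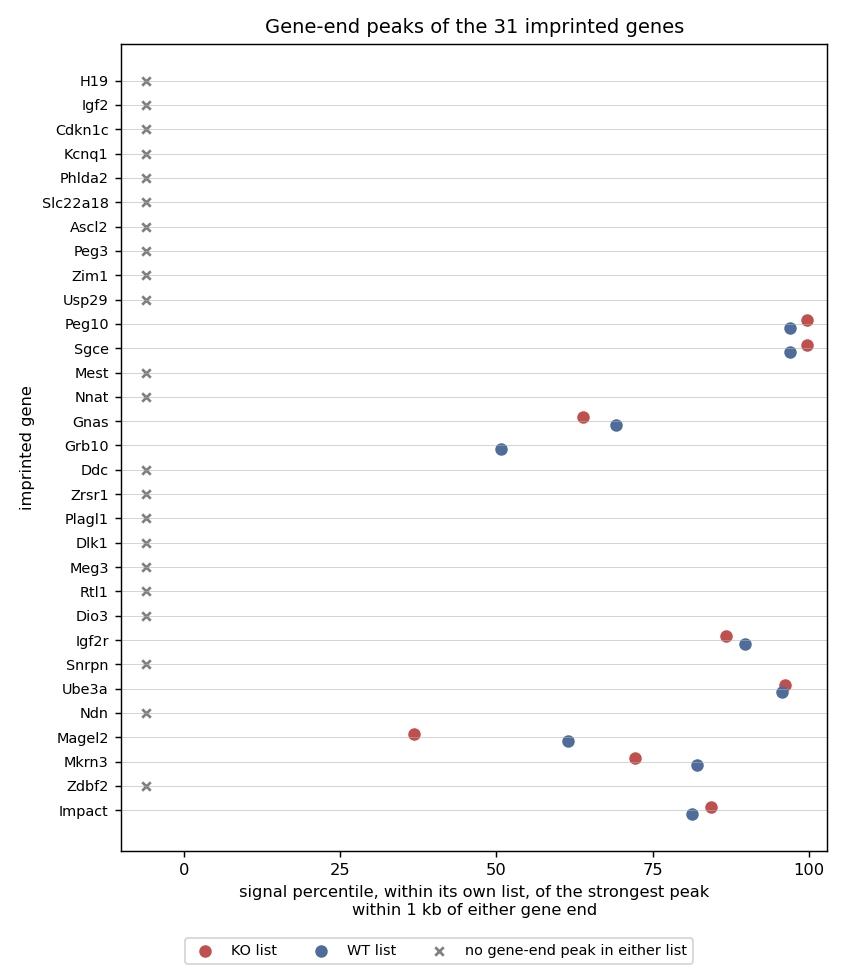
Signal percentile, within its own list, of the strongest peak within 1 kb of either end of each of the 31 genes (horizontal axis), with KO in red and WT in blue. Grey crosses mark the 22 genes without such a peak in either list. Grb10 has a WT point at 50.8 and no KO point.

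The RefSeq promoter table gave 39 start regions, of 250 bases before and 50 after a start, for 24 members. A peak overlapped 10 of them in both lists (25.6%), against 39.0% of all 32851 start regions. None held a peak in KO only, against 0.813% of all start regions, and 1 held one in WT only (Grb10), against 1.88%. The other 28 (71.8%) held none, against 58.3% of all start regions. By gene, Mest, Gnas, Igf2r, Snrpn, Ube3a and Mkrn3 had a start region with a peak in both lists, and 17 had none in either. This count by gene was not made over all genes. No entry was used for H19, Cdkn1c, Kcnq1, Peg10, Sgce, Rtl1 or Impact.

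The Kcnq1 cluster holds genes that restrain growth, and its strongest peak lay at the start of the silencing RNA in both genotypes. Kcnq1ot1 is transcribed antisense within the potassium channel gene Kcnq1 and silences its neighbours on the paternal chromosome. The peak at its start spanned 143294435 to 143297274 in KO (percentile 98.3) and 143294137 to 143297353 in WT (98.7), with summits 74 bp and 75 bp from the start. A second, very weak KO peak (percentile 0.836) covered 143294116 to 143294247, inside the WT span. The 250 bases before this start are printed for comparison with the starts above. They lie at chr7:143296548-143296797 on the minus strand, hold 5 CG, and are printed without capitals because they lay wholly under the peaks of both lists.
Kcnq1ot1: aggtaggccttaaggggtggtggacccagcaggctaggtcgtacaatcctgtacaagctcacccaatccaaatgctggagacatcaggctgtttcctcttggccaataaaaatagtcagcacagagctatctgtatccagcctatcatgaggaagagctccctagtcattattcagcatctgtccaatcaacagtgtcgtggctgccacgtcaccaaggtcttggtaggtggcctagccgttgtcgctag
None of the protein-coding genes of the cluster had a peak within 1 kb of an end. They encode the cell cycle inhibitor p57 (Cdkn1c), the placental growth regulator Phlda2, the transporter Slc22a18 and the trophoblast transcription factor Ascl2. Ascl2 had no peak within 20 kb. The strongest peak in the windows of both Cdkn1c and Slc22a18 was at percentile 39.5 in KO (143469923 to 143470281) and at 55.0 in WT (143466234 to 143466808), and both of these were shared.

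Peaks of 1 list at this cluster lay almost all within Kcnq1 or beside it. There were 2 KO-only peaks of 14 and 6 WT-only peaks of 17. The KO-only peaks covered 143100936 to 143101086 (percentile 5.35) and 143138904 to 143139083 (15.9). The strongest WT-only peak covered 143349928 to 143350310 (percentile 50.5), 6854 bp from the nearest KO peak, and the other 5 stood between 5.20 and 20.1. Upstream of Phlda2, 2 pairs were shared, one at percentiles of 32.3 in KO (143506822 to 143507183) and 40.3 in WT (143506811 to 143507016), the other at 12.9 in KO (143505947 to 143506098) and 48.6 in WT (143505771 to 143506536).

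The Igf2r locus had the same number of peaks in both lists, 17 in KO and 17 in WT, with 3 of 1 list only in each. Igf2r encodes the receptor that clears insulin-like growth factor 2, and its silencing RNA Airn starts in an intron and runs antisense across the Igf2r promoter. The Airn start was covered from 12740928 to 12741866 in KO (percentile 77.9) and from 12740925 to 12741856 in WT (78.7). The Igf2r promoter was covered from 12768313 to 12770213 in KO (86.8) and from 12768089 to 12770254 in WT (89.8). The strongest peak, inside the gene, spanned 12723761 to 12726320 in KO (98.2) and 12723951 to 12725800 in WT (95.8). All 6 peaks of 1 list only were weak, at percentiles from 5.63 to 27.8 in KO and from 1.47 to 13.2 in WT. The 250 bases before Airn, at chr17:12741061-12741310 on the plus strand, hold only 2 CG and are likewise printed without capitals because they lay wholly under the peaks of both lists.
Airn: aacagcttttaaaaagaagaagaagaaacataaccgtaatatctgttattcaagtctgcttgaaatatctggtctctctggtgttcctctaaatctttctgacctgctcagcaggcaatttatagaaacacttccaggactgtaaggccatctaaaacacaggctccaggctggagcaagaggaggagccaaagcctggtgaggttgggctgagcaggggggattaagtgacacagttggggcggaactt

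**Figure D4:**
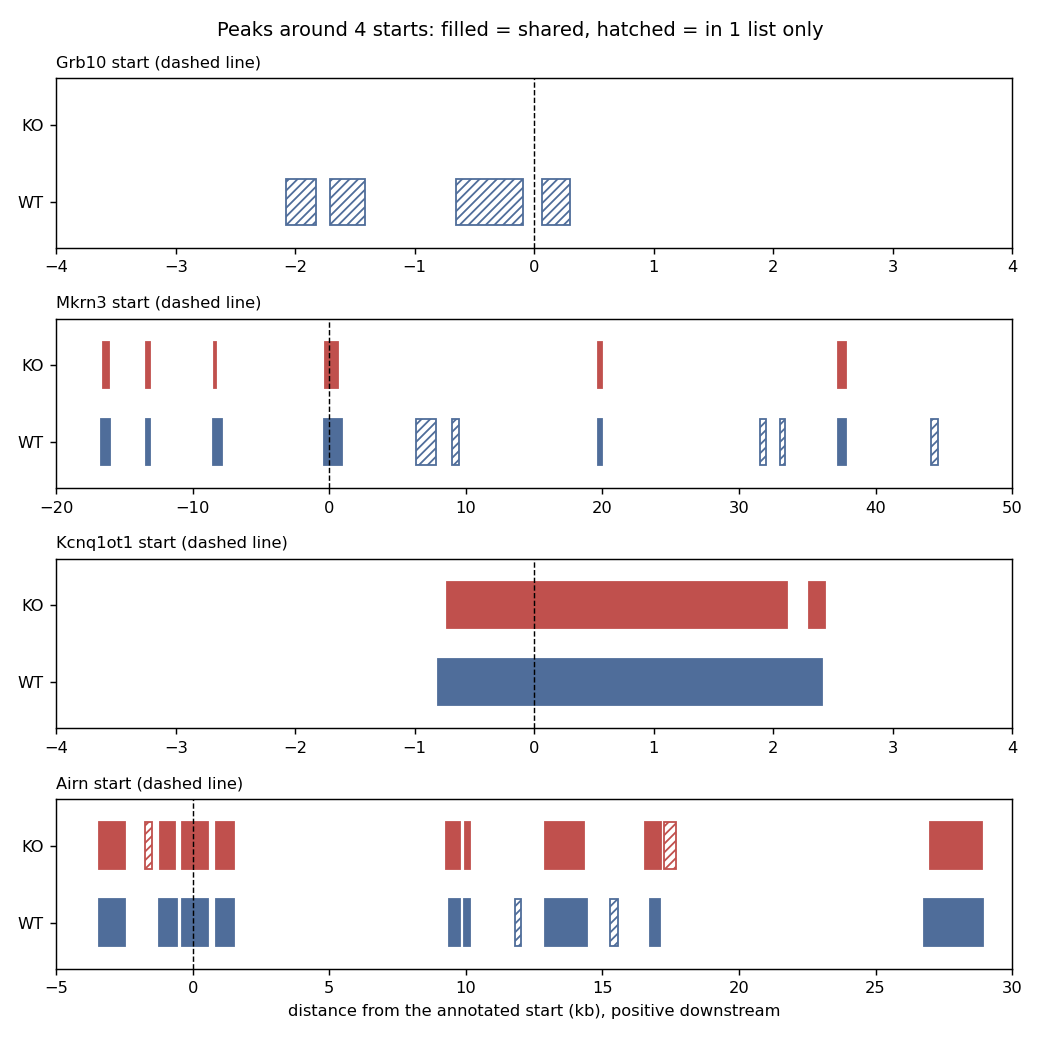
Peaks by distance in kb from the annotated starts of Grb10, Mkrn3, Kcnq1ot1 and Airn (positive downstream), with KO in red above WT in blue, filled where shared and hatched where in 1 list only. At Grb10 the 4 hatched WT peaks have no KO counterpart, at Mkrn3 the hatched peaks are all WT, and the starts of Kcnq1ot1 and Airn are covered in both lists.

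Grb10 was the one member with a start-region peak in 1 list only. It encodes an adaptor that restrains insulin receptor signalling and growth, and is expressed mainly from the maternal copy outside the nervous system. In the WT list, 4 peaks lay within 2378 bp, covering 12037122 to 12037356 (percentile 18.2), 12037510 to 12038077 (50.8), 12038834 to 12039128 (11.4) and 12039245 to 12039499 (42.7). The first of these lay inside the gene and the others upstream of it, with 153 bp between the first and the second, where the annotated start at 12037420 lies. No KO peak was called there, and the nearest KO peak was between 32898 and 35041 bp from each of the 4. The CG-rich sequence printed above ends at this start.

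Elsewhere in Grb10 the lists matched. A peak in the gene covered 11939381 to 11940134 in KO (percentile 81.0) and 11939403 to 11940152 in WT (81.9). A second covered 11973284 to 11973871 in KO (54.3) and 11973278 to 11973687 in WT (52.7). A WT-only peak at 11974994 to 11975172 was weak (6.08). The neighbouring Ddc, the aromatic amino acid decarboxylase that makes dopamine and serotonin, had 9 KO peaks with none KO-only and 10 WT peaks with 2 WT-only. Its strongest peak, inside the gene, covered 11820134 to 11821292 in KO (94.1) and 11820270 to 11821353 in WT (94.9). The stronger of the WT-only peaks covered 11825462 to 11826199 (48.5). One WT peak in Ddc, from 11881068 to 11882058 (percentile 67.2), overlapped 2 narrow KO peaks at percentiles 1.79 and 4.24.

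The Snrpn-Ube3a cluster, whose human counterpart is affected in Prader-Willi and Angelman syndromes, had 10 KO peaks with none KO-only and 16 WT peaks with 6 WT-only. Its peaks were wider in WT. Of 10 matched pairs, the KO peak was the narrower in 9, with median widths of 261.5 bp in KO and 584 bp in WT. Over all imprinted clusters the KO peak was the narrower in 57 of 93 pairs (61.3%), and over the genome in 52.4% of 75840 pairs.

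Snrpn encodes a spliceosomal protein, and its inner start lies in a region that controls the cluster. The peak there spanned 60005052 to 60005265 in KO (width 214 bp, percentile 18.1) and 60004291 to 60005268 in WT (width 978 bp, percentile 63.1). The summits lay 83 bp from the start in KO and 82 bp in WT, so that the WT peak reached further into the gene. The outer Snrpn starts had no peak in either list. The start of the ubiquitin ligase gene Ube3a, expressed from the maternal copy in neurons, was covered in both lists, at percentile 96.3 in KO (59227900 to 59229720) and 95.8 in WT (59228049 to 59229918). Ndn, which encodes the growth suppressor necdin, had no peak within 20 kb in either list.

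Most of the difference in number lay around Magel2 and Mkrn3. Magel2 encodes a regulator of ubiquitin ligases and Mkrn3 a ring-finger protein that restrains puberty, and both are expressed from the paternal copy. Their windows held 6 KO peaks, all shared, and 11 WT peaks, of which 5 were WT-only. The strongest WT-only peak of all imprinted clusters covered 62412379 to 62413806 (width 1428 bp, percentile 87.1), and the nearest KO peak lay 5692 bp away. The others covered 62410676 to 62411184 (56.7), 62375569 to 62376091 (47.9), 62388185 to 62388582 (38.7) and 62386789 to 62387115 (19.4). All 5 lay inside the long non-coding RNA gene Gm32061.

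The Mkrn3 start itself was shared, with a peak from 62419498 to 62420491 in KO (width 994 bp, percentile 72.2) and from 62419255 to 62420524 in WT (width 1270 bp, percentile 82.1). The shared gene-end peak of Magel2 lay at its far end, from 62382318 to 62382883 in KO (36.9) and from 62382308 to 62382875 in WT (61.5). The start region of Magel2 had no peak in either list. However, the WT-only peak from 62375569 to 62376091 (47.9) reached within 1 kb of the Magel2 start, where no KO peak was called. The strongest KO peak in the window of Magel2, from 62400208 to 62400469 (39.8), was shared with a WT peak at 51.8. In the 10 Mb block of chromosome 7 that holds these genes, the KO list had 291 peaks and the WT list 365.

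The Peg3 cluster was almost without peaks in the KO list. It had 1 KO peak, which was shared, and 5 WT peaks, of which 4 were WT-only. Peg3 encodes a zinc-finger protein linked to growth and maternal behaviour, Usp29 a deubiquitinase read from the same start region in the other direction, and Zim1 a zinc-finger protein expressed from the maternal copy. The shared peak lay in Usp29, from 6937068 to 6937420 in KO (percentile 24.2) and from 6937032 to 6937408 in WT (31.6). WT-only peaks in Usp29 covered 6940793 to 6941214 (47.3), 6913657 to 6914291 (46.4) and 6918176 to 6918558 (30.4). The fourth lay in Peg3, from 6727398 to 6727629 (4.79). Neither list had a peak at the shared start region of Peg3 and Usp29 printed above, and Zim1 had none within 20 kb.

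Peg10 and Sgce share a start region that carried the strongest peak of any imprinted cluster in the KO list. Peg10 derives from a retrotransposon and is needed for the placenta, and Sgce encodes epsilon-sarcoglycan. The peak spanned 4746648 to 4749715 in KO (percentile 99.6), where the WT list had a peak from 4746679 to 4748903 (97.0) and another from 4749015 to 4749549 (79.6), both overlapped by the KO peak. In contrast with the set at large, the KO peak was the narrower in only 1 of 7 matched pairs. The median width of these pairs was nevertheless lower in KO, at 553 bp against 635 bp in WT. The KO peak was also the narrower in a minority of pairs at Impact (2 of 6) and Kcnq1 (4 of 10). At Peg10-Sgce there were 2 KO-only peaks of 10 and 1 WT-only peak of 10. The stronger KO-only peak lay in Sgce, from 4728230 to 4728718 (55.0), 4188 bp from the nearest WT peak. The other KO-only peak stood at 10.3 and the WT-only peak at 33.7.

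Mest, which encodes a hydrolase-like protein that promotes growth, had its strongest peak at its inner start, from 30736787 to 30738963 in KO (width 2177 bp, percentile 90.1) and from 30736629 to 30738978 in WT (width 2350 bp, percentile 97.6). The summit lay 920 bp from the start in both lists. WT-only peaks followed downstream, from 30739119 to 30739640 (38.9) and from 30740911 to 30741103 (19.3). The outer Mest start had no peak in either list.

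Gnas, which encodes the stimulatory G protein alpha subunit and other transcripts from several starts, had 12 KO peaks with 1 KO-only and 11 WT peaks with none WT-only. All of its 4 annotated start regions held peaks in both lists. The outermost start had percentiles of 63.9 in KO and 69.1 in WT, the pair around 174327749 of 78.6 and 82.7, and the start at 174330006 of 78.5 and 75.6, each in KO and in WT. The KO-only peak lay upstream of the gene, from 174275889 to 174276470 (34.8).

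Nnat, Zrsr1 and Impact had strong peaks nearby with almost none confined to 1 list. Nnat, a neuronal proteolipid gene that lies in an intron of Blcap, had 4 shared peaks in each list and none at its own ends. The strongest, at the Blcap start, reached percentiles of 94.6 in KO and 97.0 in WT. Zrsr1, a retrotransposed gene for a U2AF-related splicing factor in an intron of Commd1, had 9 KO peaks with 1 KO-only (8.68) and 8 WT peaks with none WT-only, and none of them lay in the gene. Its strongest peak, between Commd1 and Cct4, reached 91.8 in KO (22990105 to 22991140) and 91.3 in WT (22990145 to 22991131). Impact, a regulator of the eIF2alpha kinase Gcn2, had 6 KO peaks, all shared, and 7 WT peaks with 1 WT-only (percentile 5.18). Its strongest peak, inside the gene, reached 98.1 in KO and 97.4 in WT, and its gene-end peak 84.4 in KO and 81.3 in WT.

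Igf2 and H19, Plagl1 and Zdbf2 had few peaks. Igf2 encodes the fetal growth factor and H19 a maternally expressed RNA, and their windows held only 2 weak shared peaks in each list, both upstream of Igf2. The stronger reached percentile 38.2 in KO (142675759 to 142675977) and 33.8 in WT (142675766 to 142675954). Plagl1, a growth-restraining zinc-finger gene, had 1 shared peak upstream, at 23.7 in KO and 32.5 in WT. Zdbf2, a zinc-finger gene active in the hypothalamus, had 1 KO-only peak near its first start, from 63201953 to 63202141 (2.36). Its strongest peak, upstream near Gpr1, was shared, at 79.4 in KO and 87.1 in WT.

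At the Dlk1-Dio3 cluster, peaks lay upstream of Dlk1 and in Rtl1 but not at Meg3. Dlk1 encodes a Notch-like protein that holds back fat cell differentiation, Meg3 a maternal RNA, Rtl1 a retrotransposon-derived placental protein, and Dio3 the enzyme that inactivates thyroid hormone. Upstream of Dlk1 there were 7 KO peaks with 1 KO-only (percentile 0.0489) and 8 WT peaks with 2 WT-only (19.2 and 12.3). A further WT-only peak lay in Rian, from 109620282 to 109620490 (33.0). The strongest was shared, from 109441008 to 109442117 in KO (percentile 76.3) and from 109440996 to 109442301 in WT (83.5). Meg3 had no peak within 20 kb in either list. The window of Dio3 held a KO-only peak from 110263411 to 110263944 (62.3), the highest KO-only percentile of the set. It lay 14342 bp from the start of Dio3os, and the nearest WT peak was 48225 bp away.

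The same cluster encodes many microRNAs, and peaks overlapped few of them, though the share of all annotated hairpins under a peak was not counted. Of 26 annotated hairpins in the windows, 20 lay in the Dlk1-Dio3 cluster. KO peaks overlapped 3 hairpins (Mir432, Mir3071 and Mir136) and WT peaks 1 (Mir432), and 21 lay over 1 kb from any peak of either list. The difference rests on 1 shared peak in Rtl1, which spanned 109594813 to 109595592 in KO (percentile 58.6) and 109594753 to 109595208 in WT (33.1), so that the WT peak ended 119 bp short of Mir136. The strongest WT peak in Rtl1 was another, from 109595743 to 109596137 (37.5), shared with a KO peak at 33.2. At Mest, Mir335 lay 196 bp from the nearest WT peak, which was WT-only, and 2336 bp from the nearest KO peak. The mature sequences of a hairpin under both peaks (miR-432), one under the KO peak only (miR-136-5p) and the Mest microRNA (miR-335-5p) are given 5′ to 3′ from the RefSeq table, with the seed, bases 2 to 8, in capitals. No 2 of these seeds are the same.
miR-432: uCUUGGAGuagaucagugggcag
miR-136-5p: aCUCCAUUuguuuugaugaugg
miR-335-5p: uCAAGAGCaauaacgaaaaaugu

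The sequences before the member starts were searched on both strands for TGCCGC, the core that the imprint-protecting factor ZFP57 binds when methylated. The 250 bases before a start held it in 6 of 39 member start regions (15.4%), against 8.68% of all start regions. Of the 28 without a peak in either list 4 held it (14.3%), against 4.59% of all such regions, and of the 10 with a peak in both lists 2 held it (20%), against 14.8%. The 2 with a peak are Mest starts 3 bp apart that contain the same copies. The median number of CG in these stretches was 10 for members and 6 for all. The Zdbf2 start at 63200358 held 3 copies and had no peak in either list, and the inner Mest start at 30738050 held 2 and lay under the strong shared peak. Both are printed, from chr1:63200108-63200357 and chr6:30737800-30738049 on the plus strand, with TGCCGC or its reverse complement in capitals.
Zdbf2: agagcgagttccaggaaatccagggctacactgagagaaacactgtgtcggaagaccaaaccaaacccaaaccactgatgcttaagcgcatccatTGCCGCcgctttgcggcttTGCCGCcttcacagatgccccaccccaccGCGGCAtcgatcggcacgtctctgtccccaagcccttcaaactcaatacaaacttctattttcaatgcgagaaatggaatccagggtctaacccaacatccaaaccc
Mest: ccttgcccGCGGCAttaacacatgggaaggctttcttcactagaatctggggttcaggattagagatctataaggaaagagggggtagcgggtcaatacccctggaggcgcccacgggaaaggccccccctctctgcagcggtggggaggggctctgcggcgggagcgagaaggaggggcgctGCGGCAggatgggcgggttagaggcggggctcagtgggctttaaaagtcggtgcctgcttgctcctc
Zim1, Plagl1 and Meg3 held 1 copy each. The core of the CTCF motif was in 0 of 39 member start regions, against 2.07% of all. A match shows that the letters are there, not that a factor was bound.

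A list of further imprinted genes gave 48 genes with a position. A gene-end peak was called in both lists for 23 of them (47.9%, against 56.1% of protein-coding genes), in KO only for 1 (2.08%, against 1.31%), in WT only for 0 (against 2.47%) and in neither for 24 (50%, against 40.2%). The one was the potassium channel gene Kcnk9, with a KO-only peak from 72549333 to 72549686 (percentile 42.6), 18901 bp from the nearest WT peak. Of 18 genes for factors that set or protect imprints, such as DNA methyltransferases and zinc-finger proteins, 11 had such a peak in both lists (61.1%), 0 in KO only, 2 in WT only (11.1%) and 5 in neither (27.8%), beside the same shares of protein-coding genes. The 2 were Dnmt3l, with a weak WT-only peak (percentile 11.8), and Zfp57. At Zfp57 the WT peak (37001999 to 37003681, percentile 93.5) was shared with a KO peak (37002243 to 37003463, percentile 90.5) whose edge lay 1080 bp from the gene end.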

How the data were processed

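ATAC-seq was done on 6 libraries, 3 of Lap2alpha KO and 3 of WT dermal fibroblasts, per the labels. Per the submitters' processing notes, the tools were Bowtie2 2.5.1, deepTools 3.5.1 and Genrich, on the build GRCm38. Settings, any Tn5 shift and the merging of libraries are not given in the sources used here. Deposited by the authors was 1 peak list per genotype that gives, for each peak, a score, a signal, the −log10 of its summit p and q, and a summit offset. The deposited score equalled 1000 times signal over width, capped at 1000, to within 1, for 100% of peaks. The deposited signal is an area, never under 200, with no stated scaling between lists, and served only as a percentile within its list. The q was not used.

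Gene spans, start regions and microRNAs came from RefSeq tables of GRCm38.p6, and exons, introns and UTRs were not told apart. The rule for naming took all 31 members, each member's strongest and gene-end peaks, and up to 4 KO-only and 4 WT-only peaks per cluster, a few given as a range. Further peaks, such as the weaker WT-only ones at Grb10 and Magel2, were chosen after their values were seen. Members and lists were chosen with earlier results of these data known. Peaks were placed by summit, with other overlap rules, thresholds, list lengths, flanks and gene-end widths as alternatives. Python 3.11.15, numpy 2.4.6, pandas 2.3.3, scipy 1.17.1 and matplotlib 3.10.9 were used, and overlaps were checked against bedtools on simulated data.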

Additional observations from a re-analysis of the deposited data

How the results depend on the processing

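The KO-only peaks at imprinted clusters numbered 26 with a reciprocal overlap of 50%, 7 with a stricter summit threshold (−log10 p of at least 7.66), 5 in the upper 50% of each list, 6 with both lists at 73554 peaks and 7 with a 5 kb flank, against 12 as reported. The WT-only peaks numbered 20 in the upper 50%, and between 25 and 46 under the other alternatives, against 33. With the stricter threshold, the upper 50% and equal lengths, both lists were cut before matching. A peak whose partner fell below the cut then counts as KO-only or WT-only. With reciprocal overlap, 76.8% of KO and 65.2% of WT peaks were shared, against 71.9% and 66.4% of all peaks. WT-only peaks outnumbered KO-only ones under every alternative run. With lists of equal length, 92.5% of KO and 72.1% of WT peaks at the clusters were shared, against 84.7% and 84.2% of all peaks. At a gene end of 2 kb, 1 member (Zdbf2) had a peak in KO only and 2 (Grb10 and Dlk1) in WT only. Grb10 was the one member with a gene-end peak in WT only under the stricter threshold too. By cluster, KO-only minus WT-only peaks turned to -2 at Gnas and -1 at Zdbf2 with the stricter threshold, from 1 at each. It turned from 1 to -1 at Zrsr1 in the upper 50%. The KO-only peak of each of these clusters was cut. The WT-only peaks counted there had KO partners in the uncut lists that fell below the cut. Those partners had a −log10 p of 6.54 and 5.86 at Gnas and 6.95 at Zdbf2, and a percentile of 45.4 at Zrsr1. Any cause beyond the cut was not tested. At Snrpn-Ube3a the difference was -6, -8 and -6 with reciprocal overlap, the stricter threshold and the upper 50%. In the same order it was -6, -4 and -4 at Grb10-Ddc, -4, -3 and 0 at Peg3, and -3, -5 and -4 at Kcnq1. No paired analysis was possible because each genotype had 1 list combined over its libraries, and for the same reason no library could be left out. Depth was unknown, which limits what a missing peak shows.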
